A study of Mus musculus with 6 samples.

Results

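The genes described here are 36 genes of mitosis and of the G2 to M transition, among them the cyclins that drive Cdk1, the spindle kinesins, the kinetochore and spindle checkpoint proteins and the proteins of cytokinesis. They are a list of symbols, each with 1 row on the array, and all 36 were found among the 30927 genes tested. Values are log2 signals per gene and array as the authors deposited them, so a difference of 1 is a 2-fold change. RNA was measured on 6 Affymetrix arrays of BMEL cells, an immortalized line of hepatoblasts, the fetal liver progenitors of hepatocytes and bile duct cells. Its source is fetal liver at E12.5 of CD1 mice that were wild type. A mimic of mmu-miR-337-3p was given to 3 samples, and 3 others received the negative control mimic, each at 500 ng with Lipofectamine 2000, and RNA was taken at 48 h. Every sample was therefore transfected, no untransfected sample was analysed here, and the cells of a single immortalized line stand for hepatoblasts. Nothing in the labels ties replicates to separate cultures, and p-values therefore cover the spread among these arrays alone, possibly a technical one. Of 12 hepatoblast markers, 11 read above the highest array median of 5.01 on the log2 scale in control cells. The exception was Dlk1, a surface protein of hepatoblasts, at 4.71.

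Entry into mitosis is driven by cyclin B bound to Cdk1, which is held inactive by Wee1 and Pkmyt1 until the Cdc25 phosphatases release it. The genes of this stage are transcribed together late in the cycle, through the factor Foxm1 and the MuvB complex with B-Myb, and many of their promoters carry a cell cycle homology region (CHR) and CCAAT boxes bound by NF-Y. At the end of mitosis the anaphase-promoting complex (APC/C) marks cyclins and many of the other proteins for destruction. In growing liver progenitors these transcripts follow the share of dividing cells. In bulk RNA, more cells in G2 and M and more RNA in each such cell cannot be told apart.

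The transfected mimic carries the mature sequence of miR-337-3p, given here from RefSeq (GRCm38.p6, chr12:109585850-109585871, plus strand) with its seed, bases 2 to 8, in capitals.
mmu-miR-337-3p: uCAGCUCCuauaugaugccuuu

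A promoter from RefSeq, covering 250 bases before to 50 bases after the start site on GRCm38.p6, was matched for 30 of the 36 genes. Each was searched on both strands for TTTGAA or TTTAAA (CHR), for CCAAT and for TTTCCCGC or TTTGGCGC (E2F). TTTAAA is its own reverse complement, and in the promoters shown no CHR overlapped a CCAAT. A CHR within 50 bases of the start site was found in 22 of 30 genes, or 73.3%, against 9.54% of the 27025 genes with a promoter. CCAAT stood in 23 of 30 (76.7%) against 41.1% of all genes, and at least 2 copies in 15 of 30 against 13.3%. Both a CHR near the start and a CCAAT were held by 20 of 30 genes (66.7%), against 3.88% of all genes. Neither E2F word occurred in the 30 genes, against 1.80% of all genes. The letters are a description of these windows and not sites shown to be bound. The promoters of 4 genes are shown because they span the range of the measurements below: Ccnb1 had the smallest p-value, Bub1 the largest difference, Kif23 passed the paired fit, and Cdc25b lay closest to 0. Capitals mark a CHR word, CCAAT, or ATTGG, which is CCAAT on the other strand.
Ccnb1, chr13:100786437-100786736, minus strand: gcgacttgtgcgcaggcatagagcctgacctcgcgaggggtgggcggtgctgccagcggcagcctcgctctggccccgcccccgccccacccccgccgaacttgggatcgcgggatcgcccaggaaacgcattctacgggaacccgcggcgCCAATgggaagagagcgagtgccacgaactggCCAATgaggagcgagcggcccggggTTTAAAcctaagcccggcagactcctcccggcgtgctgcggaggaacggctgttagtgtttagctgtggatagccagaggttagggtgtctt
Bub1, chr2:127831810-127832109, minus strand: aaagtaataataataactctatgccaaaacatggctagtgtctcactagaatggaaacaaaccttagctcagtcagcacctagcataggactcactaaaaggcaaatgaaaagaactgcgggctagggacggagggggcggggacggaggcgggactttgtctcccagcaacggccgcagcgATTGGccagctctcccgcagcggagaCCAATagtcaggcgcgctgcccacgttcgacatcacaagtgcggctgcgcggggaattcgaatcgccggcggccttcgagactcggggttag
Kif23, chr9:61946750-61947049, minus strand: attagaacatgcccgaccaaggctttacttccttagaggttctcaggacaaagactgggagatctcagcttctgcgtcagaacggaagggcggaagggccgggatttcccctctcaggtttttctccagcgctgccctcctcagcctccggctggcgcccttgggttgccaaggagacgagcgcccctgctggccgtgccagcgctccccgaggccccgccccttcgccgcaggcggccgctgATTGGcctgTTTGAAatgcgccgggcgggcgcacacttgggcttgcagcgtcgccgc
Cdc25b, chr2:131186698-131186997, plus strand: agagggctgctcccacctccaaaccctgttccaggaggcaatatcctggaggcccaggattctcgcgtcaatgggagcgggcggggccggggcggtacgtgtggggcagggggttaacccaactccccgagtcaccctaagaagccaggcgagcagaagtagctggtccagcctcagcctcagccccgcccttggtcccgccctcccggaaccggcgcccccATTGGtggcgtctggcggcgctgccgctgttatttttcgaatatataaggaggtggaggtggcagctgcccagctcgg
Ccnb1 held TTTAAA beginning 42 bases before the start site behind CCAAT at 99 and 67 bases before it. Kif23 held ATTGG beginning 7 bases before the start and TTTGAA beginning at base 3 after it. Bub1 held ATTGG and CCAAT, Cdc25b held ATTGG, and neither held a CHR word.

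The log2 signals of the mitotic genes varied together from array to array, and mimic replicate 3 stood apart from the other mimic arrays in them. The median log2 signal of the 36 genes was 6.65, 7.30 and 6.77 in control replicates 1 to 3 and 8.05, 7.85 and 6.74 in mimic replicates 1 to 3. Control replicate 2 was the highest control array in 36 of 36 genes, against 31.5% of all genes tested. Mimic replicate 3 was the lowest mimic array in 36 of 36, against 30.2% of all genes. Mimic replicate 1 lay above every control array in 35 of the 36 genes (all but Cdc25b) and mimic replicate 2 in 36, while mimic replicate 3 did so in 1 (Ccnb1), lay within the control range in 17 and lay below it in 18. Over all genes the shares above every control were 34.3%, 27.7% and 32.0%.

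**Figure D1:**
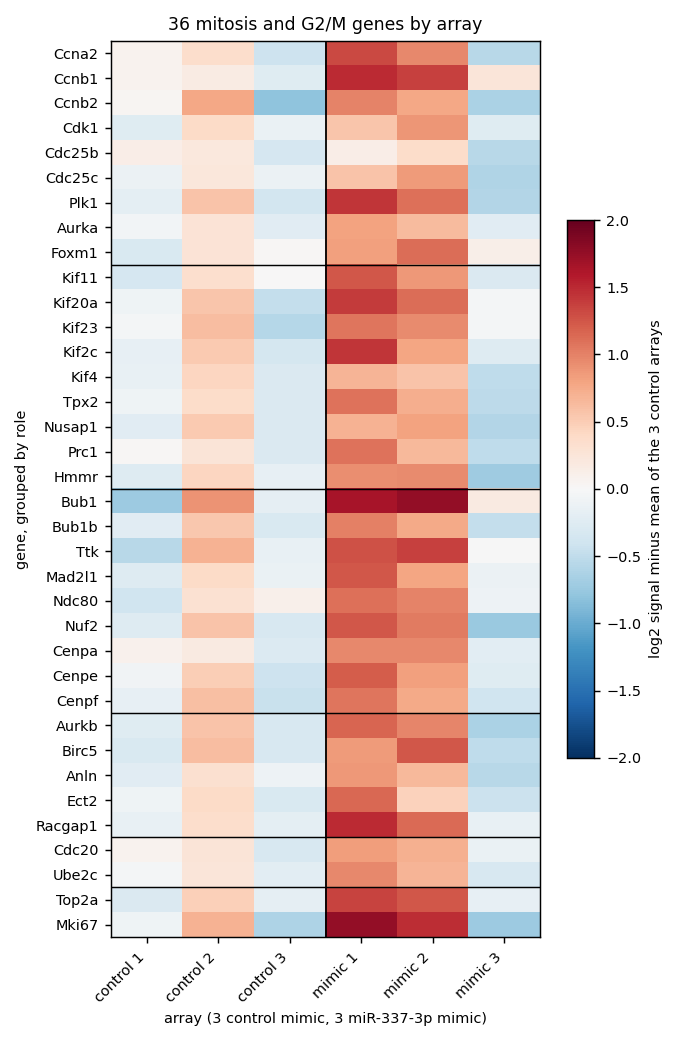
Log2 signal of each of the 36 genes (rows, grouped by role from mitotic entry at the top to chromosome structure at the bottom) in each of the 6 arrays (columns), as the difference from the mean of the 3 control arrays; red is higher and blue lower. Mimic replicates 1 and 2 are red in nearly every row, control replicate 2 is pale red, and mimic replicate 3 is pale or blue.

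In the genes called from the other replicates, the arrays of replicate 3 differed the same way. With both arrays of replicate 3 left out, 49 genes were called over all genes (limma, Benjamini-Hochberg adjusted p under 0.05), none of them among the 36, and in replicate 3 all 49 differed in the called direction. Their median difference in that direction was 1.95 in the fit without replicate 3 and 1.79 in replicate 3. These 49 were picked for large differences, in a fit chosen after seeing the data. The share of all genes that kept their direction in replicate 3 was not taken. Why mimic replicate 3 stood apart in the mitotic genes was not tested. Array medians over all genes ran from 4.83 to 5.01, and Pearson correlations between arrays, which are across genes and not independent replicates, from 0.975 to 0.989.

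Compared as 3 control against 3 mimic arrays, the 36 genes read higher after miR-337-3p mimic in 35 cases and lower in 1, but 0 of 36 passed the test. Over all genes 53.9% read higher and 3.57% were called (limma, Benjamini-Hochberg adjusted p under 0.05). The median log2 difference of the 36 was 0.52, a ratio of 1.43, against 0.02 over all genes. At an unadjusted p under 0.05 there were 3, Ccnb1, Foxm1 and Bub1, against 15.1% of all genes, and the groups did not overlap in 1 of 36, Ccnb1, against 19.6% of all genes and 11.2% with the mimic higher. Over all genes 1.89% were called higher and 1.68% lower. With the replicate number as a block in the fit, 3 of 36 passed (Ccnb1, Kif20a and Kif23), against 8.58% of all genes, and 17 had an unadjusted p under 0.05, against 22%. Without mimic replicate 3 the median difference was 0.99, 4 of 36 passed (Ccnb1, Cenpa, Racgap1 and Top2a) against 1.82% of all genes, and 34 had an unadjusted p under 0.05 against 13.1%. Without both arrays of replicate 3, a choice made after seeing the data, 0 of 36 passed against 0.158% of all genes, and 31 had an unadjusted p under 0.05 against 12%. The median difference was 0.26 without mimic replicate 1, 0.36 without mimic replicate 2 and 0.77 without control replicate 2. Of single arrays left out, mimic replicate 3 gave the highest difference in all 36 genes, and mimic replicate 1 the lowest in 25. The value moved by over 1.5 times upward in 32 genes and downward in 30, so the values without mimic replicate 3 given below are each gene's upper end. None of the 36 passed in the fits that left out control replicate 1, 2 or 3, where 1.04%, 2.33% and 1.96% of all genes were called. The same held without mimic replicate 1 or 2 (1.69% and 1.85%), without both arrays of replicate 1 or 2 (0.249% and 1.13%), and without the dimmer genes, below the median of gene means (9%).

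**Figure D2:**
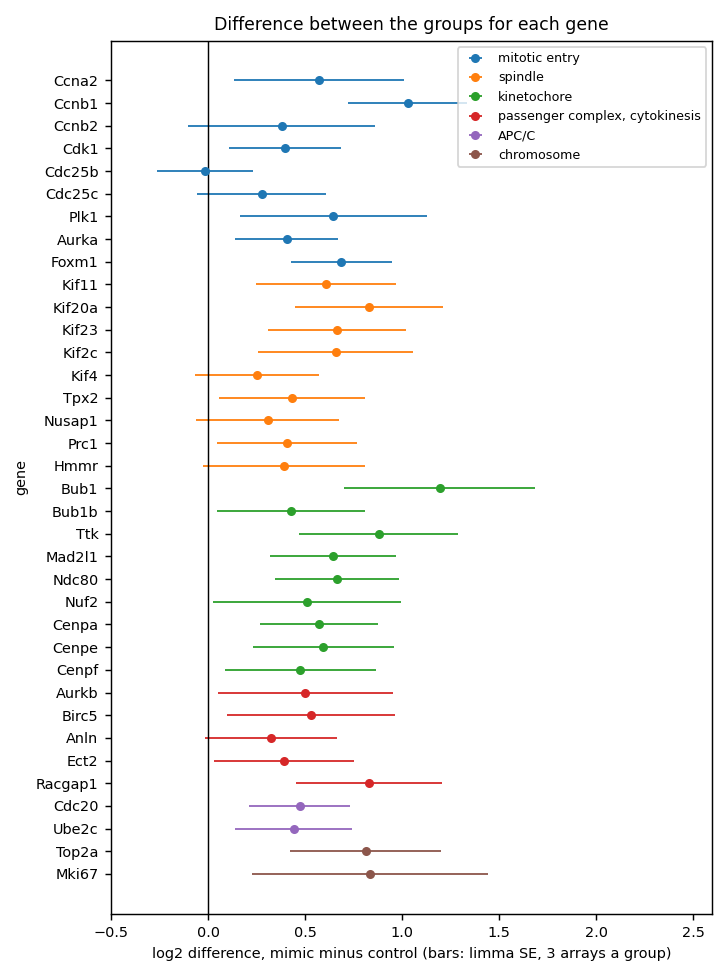
Log2 difference, miR-337-3p mimic minus control, for each of the 36 genes, with limma's SE over 3 arrays a group as bars; colours give the role. All points but Cdc25b lie above 0, from 0.25 (Kif4) to 1.19 (Bub1), with SEs from 0.25 to 0.61.

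The arrays of a group spread more in the mitotic genes than in most genes. The within-group SD had a median of 0.63 over the 36 genes, from 0.40 (Cdc25b) to 1.07 (Mki67), against 0.19 over all genes. Of all genes tested, 98.7% had a smaller SD than that median. The SDs were not compared with those of genes of like signal, and 34 of the 36 genes read above the highest array median on every array. The spread was larger among mimic than among control arrays in 36 of 36 genes, with a median SD of 0.77 against 0.37. Mimic replicate 3 was the lowest mimic array in all 36, so these are not 36 separate observations. Over all genes the mimic SD was the larger in 53.4%, at medians of 0.18 and 0.17.

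**Figure D3:**
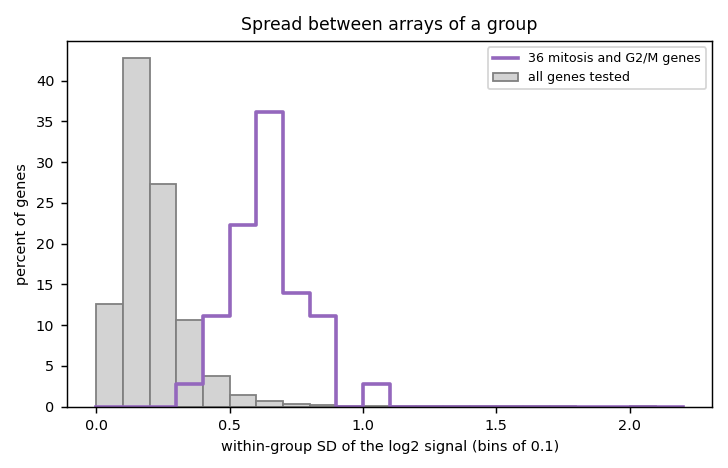
Distribution of the within-group SD of the log2 signal (x axis, bins of 0.1) over all genes tested (grey bars) and over the 36 mitotic genes (purple line), each as a percent of its genes. The mitotic genes peak between 0.6 and 0.7, and all genes between 0.1 and 0.2.

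Between arrays of the same replicate number, all 36 genes were higher with the mimic in replicates 1 and 2, and fewer than that in replicate 3. The mimic array of replicate 1 lay above the control array of the same number in 36 of 36 genes, with a median log2 difference of 1.23 that ran from 0.00236 in Cdc25b to 2.36 in Bub1. In replicate 2 it was higher in 36 of 36, with a median of 0.45 and a maximum of 1.20 in Ccnb1. In replicate 3 it was higher in 15 and lower in 21, with a median of -0.12, from -0.54 in Hmmr to 0.54 in Kif23. Medians over all genes were 0.02, 0.00400 and 0.04. Replicate numbers have no order of their own, and the labels do not say what arrays of the same number share.

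**Figure D4:**
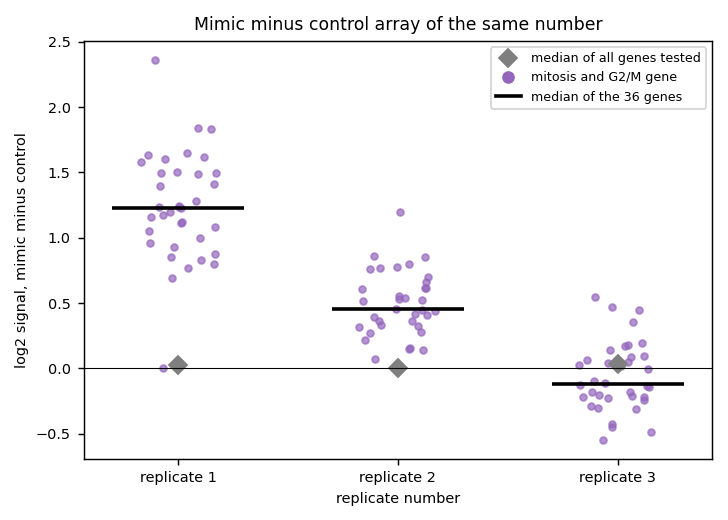
Log2 signal of the mimic array minus that of the control array of the same replicate number for each of the 36 genes (purple points), their median (black line) and the median of all genes tested (grey diamond). The median of the 36 genes is 1.23 in replicate 1, 0.45 in replicate 2 and -0.12 in replicate 3.

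Among the 9 genes of mitotic entry, cyclin B1 (Ccnb1, transcript cluster 17295757), the activating partner of Cdk1, separated the groups most clearly. Its log2 signal was 6.57, 6.67 and 6.26 in control replicates 1 to 3 and 7.98, 7.86 and 6.73 in mimic replicates 1 to 3. All 3 mimic arrays lay above the controls, although mimic replicate 3 was nearer to them than to the other mimic arrays. The log2 difference was 1.03 (SE 0.31, limma adjusted p = 0.129), with an adjusted p of 0.0167 with the block, 1.43 (adjusted p = 0.0158) without mimic replicate 3, and 0.80 (adjusted p = 0.279) without mimic replicate 1.

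Foxm1 (17463401), the transcription factor of the G2 and M genes, read 6.05, 6.62 and 6.37 in control replicates 1 to 3 and 7.17, 7.47 and 6.46 in mimic replicates 1 to 3. Mimic replicate 3 fell inside the control range, below control replicate 2. The difference was 0.69 (SE 0.26, limma adjusted p = 0.245), 0.97 without mimic replicate 3 (adjusted p = 0.0628) and 0.47 without mimic replicate 2. Polo-like kinase 1 (Plk1), which promotes mitotic entry and spindle assembly, read 7.04, 7.80 and 6.87 in control replicates 1 to 3 and 8.66, 8.33 and 6.65 in mimic replicates 1 to 3. Its lowest array of all 6 was a mimic array, replicate 3, and its difference was 0.65 (SE 0.48, limma adjusted p = 0.661).

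The catalytic partner Cdk1 had a difference of 0.40 (SE 0.29), the S and G2 cyclin Ccna2 0.57 (SE 0.44), and the spindle pole kinase Aurka 0.40 (SE 0.26). Ccnb2, another B-type cyclin, differed by 0.38 (SE 0.48), and its control arrays alone ran from 7.57 to 9.14. The Cdc25 phosphatases, which remove the inhibitory phosphates from Cdk1, had the smallest differences of the 9. Cdc25b read 5.90, 5.98 and 5.43 in control replicates 1 to 3 and 5.90, 6.13 and 5.22 in mimic replicates 1 to 3, a difference of -0.02 (SE 0.25, limma adjusted p = 0.990), with the groups overlapping throughout. Cdc25c differed by 0.28 (SE 0.33), and its mimic replicate 3, at 4.61, lay below the array medians, where the signal may be background. Adjusted p-values of these 9 genes ran from 0.129 to 0.990 in limma, their median difference was 0.40, and without mimic replicate 3 it was 0.89.

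All 9 spindle genes read higher on average in mimic samples, with a median difference of 0.43, and none passed. Kif20a (17349433), a kinesin of the central spindle and cytokinesis, read 7.21, 7.85 and 6.81 in control replicates 1 to 3 and 8.69, 8.41 and 7.26 in mimic replicates 1 to 3. Kif23 (17527934), the kinesin subunit of centralspindlin, read 8.60, 9.26 and 8.06 in control replicates 1 to 3 and 9.71, 9.59 and 8.61 in mimic replicates 1 to 3. Within every replicate number the mimic array of both genes was the higher, by 0.45 to 1.49 in Kif20a and by 0.33 to 1.12 in Kif23, while the groups overlapped. The differences were 0.83 (SE 0.38, limma adjusted p = 0.365) and 0.66 (SE 0.36, limma adjusted p = 0.464), with adjusted p-values of 0.0493 and 0.0497 with the block.

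Kif11, the motor that pushes spindle poles apart, differed by 0.61 (SE 0.36), and Kif2c, a microtubule depolymerase, by 0.66 (SE 0.40). Tpx2, which activates Aurka on spindle microtubules, differed by 0.43, Prc1, which bundles midzone microtubules, by 0.41, and the hyaluronan-binding spindle protein Hmmr by 0.39. The microtubule-binding protein Nusap1 differed by 0.31 and the chromokinesin Kif4 by 0.25. For these 5 the mimic array of replicate 3 was the lowest of all 6, between 5.03 in Hmmr and 7.27 in Tpx2. Adjusted p-values of the 9 spindle genes ran from 0.365 to 0.846 in limma, and without mimic replicate 3 the median difference was 0.94.

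Kinetochore and checkpoint genes, also 9, had a median difference of 0.59, with the largest single difference of the 36 in Bub1. Bub1 (17391376), a checkpoint kinase at the kinetochore, read 5.48, 7.10 and 6.02 in control replicates 1 to 3 and 7.84, 7.96 and 6.37 in mimic replicates 1 to 3. Control replicate 2 stood apart from the other controls and above mimic replicate 3, so the groups overlapped. The difference was 1.19 (SE 0.49, limma adjusted p = 0.295), 2.29-fold, 1.70 without mimic replicate 3 (adjusted p = 0.0950) and 0.83 without control replicate 1. Ttk (Mps1), the kinase that starts checkpoint signalling, had the same shape and read 5.56, 6.82 and 5.97 in control replicates 1 to 3 and 7.40, 7.48 and 6.12 in mimic replicates 1 to 3, a difference of 0.88 (SE 0.41, limma adjusted p = 0.373).

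The checkpoint proteins Mad2l1 and Bub1b, which hold back Cdc20, differed by 0.64 (SE 0.33) and 0.43 (SE 0.38). Ndc80 and Nuf2, which form the microtubule-binding rod of the kinetochore together, differed by 0.66 (SE 0.32) and 0.51 (SE 0.49). The centromeric histone Cenpa differed by 0.57 (SE 0.31) and passed without mimic replicate 3 (0.96, adjusted p = 0.0437), where without mimic replicate 1 it was at 0.37. The kinetochore motor Cenpe and the large kinetochore protein Cenpf differed by 0.59 and 0.48. Adjusted p-values of the 9 ran from 0.295 to 0.762 in limma, and without mimic replicate 3 the median difference was 1.02.

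Of the 5 genes of the chromosomal passenger complex and of cytokinesis, Racgap1, the GTPase-activating subunit of centralspindlin, differed most. Racgap1 (17321597) read 6.95, 7.44 and 6.90 in control replicates 1 to 3 and 8.58, 8.24 and 6.95 in mimic replicates 1 to 3, a difference of 0.83 (SE 0.38, limma adjusted p = 0.356) that was 1.31 without mimic replicate 3 (adjusted p = 0.0302) and 0.50 without mimic replicate 1. Its mimic replicate 3 was level with control replicate 1. Aurora B (Aurkb) and survivin (Birc5), the kinase and a targeting subunit of the passenger complex, differed by 0.50 (SE 0.45) and 0.53 (SE 0.43). The RhoA exchange factor Ect2 and the actin-binding anillin (Anln) differed by 0.39 and 0.32, and in these 4 mimic replicate 3 was the lowest of the 6 arrays. Birc5 read 4.88 and 4.87 in control replicates 1 and 3 and 4.68 in mimic replicate 3. These lie below the highest array median of 5.01, where the signal may be background. The median of the 5 was 0.50, and 1.05 without mimic replicate 3.

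The APC/C activator Cdc20 and the ubiquitin-conjugating enzyme Ube2c, which works with the complex, had within-group SDs of 0.42 and 0.50, below the median of the 36. Cdc20 read 7.06, 7.25 and 6.67 in control replicates 1 to 3 and 7.83, 7.70 and 6.87 in mimic replicates 1 to 3, a difference of 0.47 (SE 0.26, limma adjusted p = 0.486). Ube2c read 7.80, 8.08 and 7.63 in control replicates 1 to 3 and 8.80, 8.52 and 7.52 in mimic replicates 1 to 3, a difference of 0.44 (SE 0.30, limma adjusted p = 0.609). Both overlapped between groups through mimic replicate 3.

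The genes of mitotic chromosomes ran over a wide range. Topoisomerase II alpha (Top2a), which untangles sister chromatids, read 7.14, 7.91 and 7.25 in control replicates 1 to 3 and 8.79, 8.67 and 7.27 in mimic replicates 1 to 3. Ki-67 (Mki67, 17497334), the coat protein of mitotic chromosomes and a common marker of dividing cells, read 8.08, 8.86 and 7.53 in control replicates 1 to 3 and 9.91, 9.63 and 7.44 in mimic replicates 1 to 3. Mki67 spanned 2.47 among mimic arrays and 1.33 among control arrays, and its highest and lowest arrays were both mimic arrays. The differences were 0.81 (SE 0.39, limma adjusted p = 0.391) and 0.84 (SE 0.61, limma adjusted p = 0.644). Without mimic replicate 3 they were 1.30 (adjusted p = 0.0445) and 1.61 (adjusted p = 0.0686), and without mimic replicate 1 they were 0.54 and 0.38.

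The ratios in the authors' deposited table were larger for these genes than ratios of means. That table uses bi-weight averages, which give a lone array less weight. Whether this accounts for the larger ratios was not tested, and no share over all genes was taken. In the authors' deposited table the ratio of mimic to control ran from 0.952 (Cdc25b) to 3.43 (Bub1), with a median of 1.86, against 0.988 to 2.29 and 1.43 from means, and it was the larger in 35 of 36 genes. For Mki67 the authors' deposited table gives a ratio of 3.10 where the means give 1.78. The authors' deposited table gives none of the 36 an FDR p-value below 0.452 and none an ANOVA p-value under 0.05.

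Further genes of the same processes, on lists that share no gene with the 36, also read higher on balance. Of 134 further mitosis genes, 111 read higher and 23 lower, where 53.9% of all genes read higher. In limma 4 of the 134 rose and 0 fell (adjusted p under 0.05), against 1.89% of all genes called higher. Before adjustment, 39 of them were higher and 2 lower with p under 0.05, where 8.7% of all genes were higher. Their median difference was 0.29 and their median within-group SD 0.27. With the block 19 rose and 0 fell, against 4.7% of all genes called higher.

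The spindle protein gene Ckap2, of 24 further spindle genes, rose by 1.51 (SE 0.26, adjusted p = 0.0200 in limma). It read 6.00, 6.63 and 5.90 in control replicates 1 to 3 and 7.97, 7.91 and 7.18 in mimic replicates 1 to 3, with the groups apart. All 24 spindle genes read higher, at a median of 0.49, and the next by p-value, the centrosome protein gene Cep192 and the augmin genes Haus1 and Haus4, differed by 0.49, 0.69 and 0.44, and with the block Haus1 passed (adjusted p = 0.0116). Of 35 further kinetochore genes 32 read higher, and the constitutive centromere genes Cenpt and Cenpc1 rose by 0.97 (SE 0.18, adjusted p = 0.0237) and 0.87 (SE 0.16, adjusted p = 0.0269). Cenpc1 read 6.94, 7.40 and 7.48 in control replicates 1 to 3 and 8.15, 8.07 and 8.21 in mimic replicates 1 to 3, so mimic replicate 3 was its highest array. The kinetochore genes Dsn1 and Ska2 differed by 0.69 and 0.58 (adjusted p = 0.0646 and 0.118), and both passed with the block (0.0214 and 0.0433).

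Of 19 APC/C subunits and regulators 16 read higher, and Anapc5, a scaffold subunit, rose by 0.62 (SE 0.13, limma adjusted p = 0.0397). The securin gene Pttg1, the inhibitor gene Fbxo5 (Emi1) and the activator gene Fzr1 differed by 0.54, 0.69 and 0.32 (adjusted p = 0.0953, 0.137 and 0.255), and with the block Pttg1 and Fbxo5 passed (0.0338 and 0.0471). None of 22 further entry genes passed in limma, and 9 were higher at an unadjusted p under 0.05, against 8.7% of all genes. With the block 4 of the 22 passed, all higher, against 4.7% of all genes: Wee1, Plk4, and Mastl and Gtse1, which are named after their values were seen. Wee1, the kinase that opposes Cdc25, read 6.37, 7.23 and 6.72 in control replicates 1 to 3 and 7.43, 7.56 and 7.88 in mimic replicates 1 to 3, a difference of 0.85 (SE 0.22, limma adjusted p = 0.0866), with an adjusted p of 0.0261 with the block. Mimic replicate 3 was its highest array, unlike in the 36 genes. The centriole kinase gene Plk4, Cdk2 and the Cdk-binding protein gene Cks1b differed by 0.79, 0.54 and 0.46, with adjusted p-values of 0.111 to 0.148 in limma, and with the block Plk4 passed (0.0446). Of the 4 calls in these lists, Anapc5 passed in none of the 6 fits that left out 1 array (adjusted p up to 0.155), Ckap2 in those lacking control replicate 2 or mimic replicate 3 (up to 0.0905), Cenpt in that lacking control replicate 2 (up to 0.0935) and Cenpc1 in that lacking control replicate 3 (up to 0.0816).

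DNA replication and G1/S genes, which act earlier in the cycle, shared the direction. All 36 measured read higher, at a median of 0.47, where 53.9% of all genes read higher. In limma 1 of the 36 rose, against 1.89% of all genes called higher. This was the replication licensing control gene Dtl, at 1.07 (SE 0.22, adjusted p = 0.0366 in limma, lost without any 1 array, up to 0.143). The helicase subunit genes Mcm7 and Mcm4 and the loading factor gene Cdt1 differed by 0.82, 1.18 and 0.56 (adjusted p = 0.0513, 0.0695 and 0.114), and with the block Mcm7 and Mcm4 passed (0.0399 and 0.0444). By replicate number the median differences of all 36 replication genes were 0.91, 0.47 and 0.04. Mimic replicate 3 lay above every control array in 11 of 36 replication genes, in 1 of the 36 mitotic genes and in 32.0% of all genes, and no test was made of these shares. It was the lowest mimic array in 31 of 36 replication genes, as in all 36 mitotic genes, against 30.2% of all genes. With the block 8 of 36 replication genes rose, against 4.7% of all genes called higher.

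**Figure D5:**
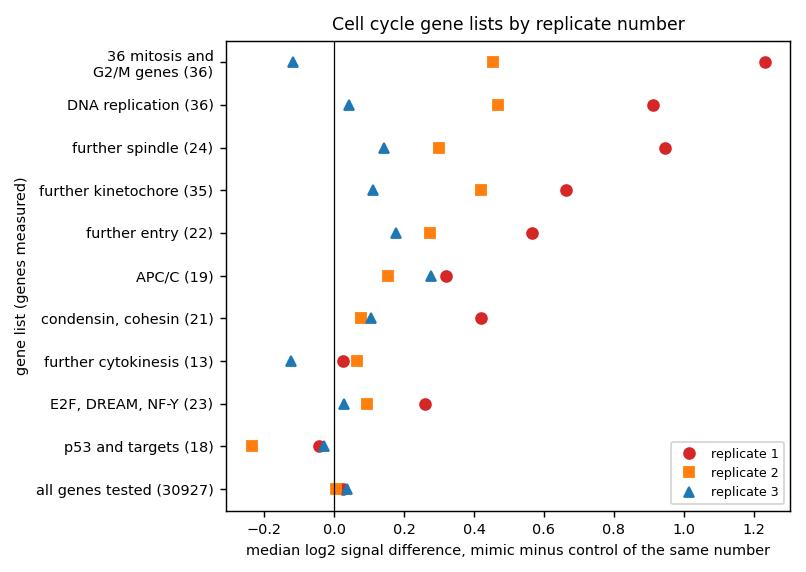
Median log2 difference, mimic minus control array of the same replicate number, for the 36 mitotic genes, the other cell cycle lists and all genes tested; the number of genes measured is in brackets. The 36 mitotic genes have the widest gap between replicates, from 1.23 in replicate 1 to -0.12 in replicate 3, and all genes lie at 0.04 or less.

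Few markers of other cell types read above the array medians. Of 22 markers of fibroblasts, endothelium, blood and stellate cells, 5 read above the highest array median in control cells. They were Cd68, Acta2, Csf1r, Col1a1 and Pdgfrb. The collagen gene Col1a1 and the macrophage gene Cd68 rose, by 0.59 and 1.18 on the log2 scale (limma adjusted p = 0.0384 and 0.0320). Over all genes 1.89% were called higher. Of the 22, 13 read lower, among them the macrophage gene Csf1r at -0.36 (limma adjusted p = 0.433). Its groups were barely apart, at 5.480 in the lowest control and 5.476 in the highest mimic array. The groups were apart in 2 of the 22 with the mimic higher and in 1 with it lower, against 19.6% of all genes. The summed signal of the 22, on the log2 scale, ran from 9.21 to 9.38 in control and from 9.52 to 9.77 in mimic arrays. Without Cd68 it ran from 8.95 to 9.04 and from 8.89 to 9.07. Ptprc, at 3.22 in control cells, and Pecam1, at 4.28, were among the markers below the array medians. The part of other cell types in the differences given here was not tested. Of the 12 hepatoblast markers Epcam and Ttr fell by 1.00 and 1.22 on the log2 scale (limma adjusted p = 0.00682 and 0.0259). Over all genes 1.68% were called lower. The apolipoprotein gene Apoa1 and the albumin gene Alb differed by -1.34 and -1.14 (limma adjusted p = 0.104 and 0.127) and passed with the block (0.00356 and 0.0249). Of the 12, 8 read lower, 6 of them with the groups apart and an unadjusted p under 0.05, against 19.6% and 15.1% of all genes. The summed signal, in which the keratin genes Krt8 and Krt18 are the brightest, ran from 13.92 to 14.06 in control and from 13.76 to 13.98 in mimic arrays, and without them from 12.93 to 13.12 and from 12.55 to 12.76.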

How the data were processed

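Total RNA of 6 samples was labelled with biotin for Affymetrix arrays, per the labels' protocols. Which array design, software and normalization were used is not stated in these sources. The deposited values table holds 1 log2 signal per transcript cluster (the array's row for a gene) for 41345 rows, taken as normalized by the authors. The authors' deposited comparison table adds symbols and, per the file headers, bi-weight log2 averages, a signed fold change (a score), a linear ratio, the p-value of an ANOVA and its FDR p-value. Symbols were joined through the row ID for 34471 rows, which left 30927 genes after the row with the highest mean was taken per symbol. Each of the 36 genes has 1 row. No detection call is given, so low signals may be background, and the number of arrays limits the precision.

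The group alone was modelled for all genes by lmFit and eBayes (limma 3.58.1, R 4.3.3), with Benjamini-Hochberg adjustment over all genes and a threshold of 0.05. The fit was tested on simulated data. Errors of differences are limma's SEs, and the within-group SD is the residual SD of that fit. Replicate numbers were checked for pairing. Deviations from group means correlated at 0.431, 0.370 and 0.442 over all genes between arrays of the same number. In the 36 genes the median deviation was -0.15 in control and 0.54 in mimic replicate 1, of opposite sign. It was 0.41 and 0.33 in replicate 2, and -0.29 and -0.88 in replicate 3. Between arrays of different numbers the deviations over all genes correlated at -0.292 to -0.119. Deviations cancel within a group, so positive correlations at the same number force negative ones elsewhere. The negative values are therefore no second sign of pairing. The main fit leaves the replicate number out. Only the block and the differences by replicate number treat same-numbered arrays as pairs, on the values and not on the labels. Alternatives were the replicate number as a block, quantile normalization, median centring, a filter on dim genes, the lowest row per gene, limma's trend and robust options, and leaving out each array or both arrays of a number. All 36 genes are named, and of each other list the 4 with the smallest p. The genes, lists and tests were chosen with earlier results of these data known. Promoters and the microRNA come from RefSeq (GRCm38.p6), and 6 genes without a promoter there (Ccna2, Cdc25c, Foxm1, Kif20a, Tpx2 and Aurkb) have none shown. Figures were drawn with matplotlib 3.10.9, and tables handled with pandas 2.3.3 in Python 3.11.15.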

Additional observations from a re-analysis of the deposited data

How the results depend on the processing

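The median difference of the 36 genes stayed above 0 under every alternative run, from 0.26 to 0.99 with 1 array left out and 0.18 without both arrays of replicate 1. The number of the 36 called was 0 with all arrays, 3 with the replicate block and from 0 to 4 with 1 array left out, the 4 coming from the fit without mimic replicate 3. It was 0 under the other alternatives run, among them a threshold of 0.1, quantile normalization, median centring, the filter on dim genes, and both arrays of any 1 replicate number left out, an alternative added after seeing the data. Beyond those 3 genes the block changed no call among the 36. Of 211 genes in the other cell cycle and p53 lists 5 rose and 0 fell, where 3.57% of all genes were called. With the block 30 rose and 2 fell (8.58% of all genes called), with the dimmer genes removed 10 rose (9%), and with limma's trend and robust options 8 rose (3.97%). With 1 array left out from 0 to 12 rose, 12 without mimic replicate 3, 1 without control replicate 3 and 0 without control replicate 1 or mimic replicate 1 or 2, and 0 rose without both arrays of any replicate number. Some genes changed sign with arrays left out. Cdc25b ran from -0.21 to 0.25 and was 0.077 without both arrays of replicate 3. Ccnb2 ran from -0.023 to 0.89 and Cdc25c from -0.012 to 0.71. Without both arrays of replicate 1, Kif4 was at -0.039, Nusap1 at -0.0069, Hmmr at -0.011, Anln at -0.059 and Ect2 at -0.031, and without mimic replicate 3 they were at 0.63, 0.75, 0.94, 0.76 and 0.80. Fits with arrays left out hold fewer samples, and the cause was not otherwise tested.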

Other observations

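The 134 further mitosis genes counted above include 21 condensin and cohesin genes and 13 cytokinesis genes that were not described there. Of the 21 condensin and cohesin genes 17 read higher and 4 lower, with 0 called in limma and 5 at an unadjusted p under 0.05, against 15.1% of all genes. With the block 1 of the 21 was called, the condensin gene Ncapd2, against 4.7% of all genes called higher. Ncapd2 read 6.28, 7.16 and 6.33 in control replicates 1 to 3 and 7.98, 8.11 and 6.99 in mimic replicates 1 to 3, a difference of 1.10 (SE 0.33, limma adjusted p = 0.133) and an adjusted p of 0.0161 with the block. The shugoshin gene Sgol1, the condensin gene Smc2 and the cohesin regulator gene Pds5b differed by 0.58, 0.80 and 0.43. Of the 13 cytokinesis genes 7 read higher and 6 lower, with 0 called and 3 at an unadjusted p under 0.05, against 15.1% of all genes. The passenger complex scaffold gene Incenp differed by 0.77 (adjusted p = 0.176 in limma, 0.0431 with the block), while Vps4b and Pdcd6ip, of the membrane scission machinery, and the kinase gene Plk3 differed by -0.41, -0.28 and -0.55.

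Of 23 regulators of cell cycle transcription (E2F, DREAM and NF-Y subunits) 16 read higher, with a median of 0.12. In limma 0 were called, and 4 had an unadjusted p under 0.05, against 15.1% of all genes. The E2F partner gene Tfdp1 differed by 0.61 (SE 0.14, adjusted p = 0.0541, 0.0390 with the block), and Rbbp4, E2f1 and Lin9 by 0.44, 0.37 and 0.38. Of p53 and 17 of its targets 6 read higher and 12 lower, with a median of -0.19. In limma 0 were called, and 4 had an unadjusted p under 0.05, against 15.1% of all genes. Trp53 and Phlda3 differed by 0.62 and 0.52, and Sesn1 and Ei24 by -0.67 and -0.51, with adjusted p-values of 0.0655 to 0.113 in limma and 0.0256 to 0.0365 with the block.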
